A study of Bos grunniens with 12 samples.

Results

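The genes described here build the synaptonemal complex and carry out meiotic recombination in the yak testis. They were taken by symbol, with no rule on their values, but with earlier results of these data known. They are SYCP1, SYCP2, SYCP3, HORMAD1, SPO11, DMC1, MEIOB and MLH3. These 8 symbols stand on 17 of the 20953 gene identifiers in the expression table. All 6 input columns were used, together with every peak on these identifiers in the table of m6A peaks that differ between the ages. The input library of an m6A experiment holds the mRNA fragments before the antibody step, so its values measure gene expression.

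Testes came from 6 healthy yaks, 3 aged 1.5 years (Y group) and 3 aged 5 years (M group), with no treatment in either group. Each animal gave 1 input library and 1 library of fragments bound by an antibody against m6A, 12 libraries in all, and the whole tissue was sequenced without sorting of cells. Y testes were removed by castration and M testes after the animals were euthanized, so age and way of collection cannot be told apart. The ages are those of the sample titles.

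The labels contradict each other. The deposited stage field calls every sample titled 18M mature and every sample titled 5Y immature, and the growth protocol uses the letter M for the younger animals. The letters are used here by age, as in the article. Marker genes did not settle the order in favour of the titles. Spermatids are made only after meiosis and are few or absent in an immature testis. However, the summed FPKM of 4 elongating spermatid markers was 1195, 1154 and 1175 in the 3 Y libraries and 263, 849 and 731 in the 3 M libraries. TNP1, which codes for a transition protein that replaces histones in spermatids, led that list with 883, 852 and 879 FPKM in the Y group and 201, 641 and 550 FPKM in the M group. These levels go against the label of a testis before sexual maturity for the Y libraries. Which label is right was not settled, and each direction below holds for the libraries as titled. M replicate 1 stood apart: the median correlation of its log2 values with those of the Y libraries was 0.824, against 0.916 or more for the other libraries. M replicate 2 was closer to the Y libraries (0.946) than to the other M libraries (0.902).

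In meiotic prophase, homologous chromosomes pair along protein axes and are joined by the synaptonemal complex. SYCP2 and SYCP3 form the lateral elements on the axes, HORMAD1 marks axes that are not yet joined, and SYCP1 forms the transverse filaments that bridge them. SPO11 cuts the DNA, DMC1 and MEIOB act while the broken ends invade the homologous chromosome, and MLH3 acts where crossovers form. In the male these genes are known from spermatocytes, the germ cells in meiosis.

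All 8 genes were expressed at both ages, and none separated the ages beyond the spread between animals. Each symbol is represented first by its identifier with the highest mean FPKM, called the leading identifier. FPKM counts the fragments of a gene relative to its transcript length and to the mapped fragments of that library. For every leading identifier the values of the Y and M groups overlapped, whereas 33.7% of the 12437 identifiers tested did not overlap, 19.8% with M above Y and 13.9% with M below. The log2 fold change (M over Y, on log2(FPKM + 0.1)) of the 8 leading identifiers lay between -0.23 and 0.32, with 6 above 0 and 2 below, although SYCP1, HORMAD1 and MEIOB lay just below 0 once libraries were scaled to 1 median and DMC1 just above 0 once they were scaled to germ cell genes. With limma and Benjamini-Hochberg adjustment, 0 of the 8 had an adjusted p under 0.05, and 0 had an unadjusted p under 0.05. Of all identifiers tested, 0.0322% passed the adjusted threshold and 25.1% the unadjusted one. A missed threshold does not show equality. In this fit the 95% interval of all 8 leading identifiers lay inside a 2-fold change in either direction. The limits ran from -0.70 at the lowest to 0.85 at the highest. In some alternative fits the upper limit passed a 2-fold change. With scaling to germ cell genes it was 1.19 for SPO11 and 1.11 for SYCP3. For SPO11 it was 1.10, 1.06 and 1.04 without Y replicate 1, Y replicate 3 or M replicate 3.

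The 8 leading identifiers summed to 55.2, 55.2 and 55.4 FPKM in the Y group and to 52.4, 58.2 and 60.4 FPKM in the M group. The median of their log2 fold changes was 0.05, beside 0.04 for all identifiers tested. The median size of their change regardless of sign was 0.07, beside 0.34 for all. From the lowest to the highest of the 6 libraries, a leading identifier varied by 1.15-fold to 1.82-fold, with a median of 1.39-fold, whereas the median of 12272 identifiers above 0 in every library was 1.91-fold. These medians are descriptions of 8 genes and carry no test. Here and above, the identifiers compared were not matched for expression level. Each leading identifier was the highest of its symbol, whereas the set of all identifiers tested also holds weakly expressed ones. Whether expression level accounts for the smaller changes and ranges of the leading identifiers was not tested.

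**Figure D1:**
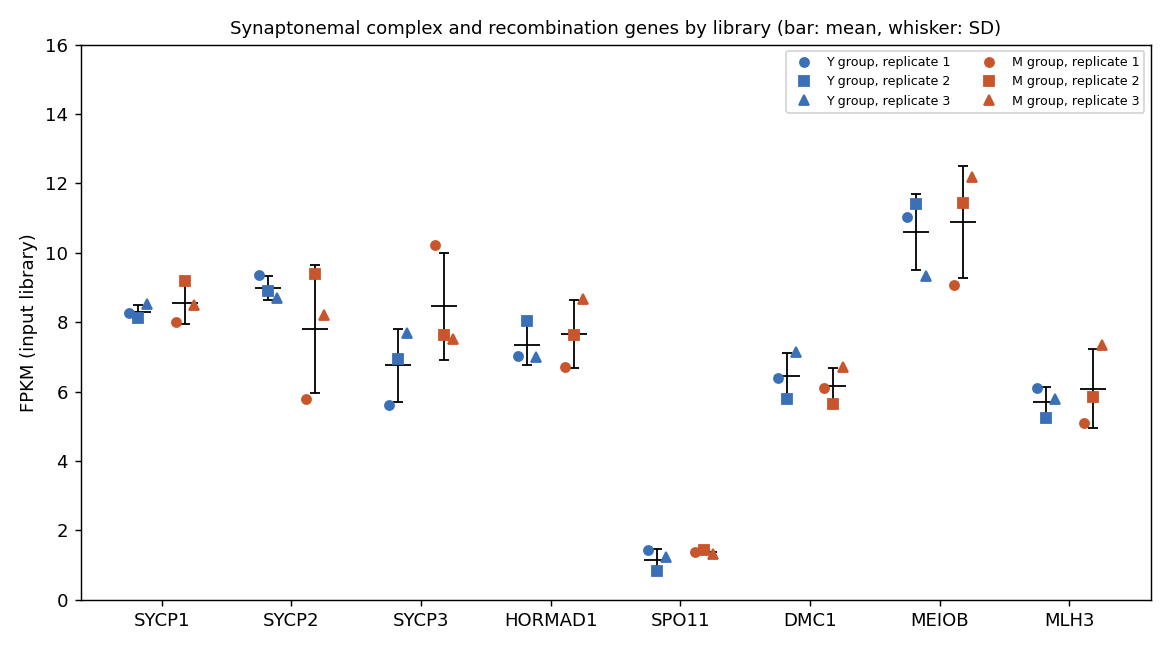
FPKM in the 6 input libraries of the leading identifier of each gene, with the Y group (1.5 years) in blue and the M group (5 years) in orange. Symbols mark replicates, horizontal bars the mean and whiskers the SD (n = 3). The groups overlap for all 8 genes, MEIOB is highest with group means of 10.6 and 10.9 FPKM, and SPO11 is lowest with 1.15 and 1.38 FPKM.

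Among the axis genes, SYCP2 and SYCP3 lay apart in 1 animal. SYCP3 (ENSBGRG00000000767) had 5.61, 6.95 and 7.70 FPKM in the Y group and 10.2, 7.62 and 7.52 FPKM in the M group. M replicate 1 held the highest value, and the other M libraries lay within the Y range. The means were 6.75 ± 1.06 and 8.45 ± 1.53 FPKM (SD, n = 3), with a log2 fold change of 0.32 (SE 0.19, 95% interval -0.13 to 0.76, limma adjusted p = 0.314). Without M replicate 1 the log2 fold change was 0.17.

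SYCP2 (ENSBGRG00000024249) had 9.36, 8.90 and 8.69 FPKM in the Y group and 5.77, 9.40 and 8.21 FPKM in the M group. Here M replicate 1 was the lowest library and M replicate 2 the highest. The means were 8.98 ± 0.344 and 7.79 ± 1.85 FPKM, and the log2 fold change was -0.23 (SE 0.20, 95% interval -0.70 to 0.24, limma adjusted p = 0.466). Leaving out M replicate 1 moved it to -0.03. The ratio of SYCP3 to SYCP2, whose proteins bind each other in the lateral element, was 0.600, 0.780 and 0.886 in the Y group, 1.77 in M replicate 1, and 0.811 and 0.916 in M replicates 2 and 3. Thus 5 libraries held less SYCP3 than SYCP2 and 1 held more. Both values are per transcript length.

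HORMAD1 (ENSBGRG00000001109) also loads on the axes, where it promotes break formation until TRIP13 removes it. It had 7.03, 8.02 and 7.01 FPKM in the Y group and 6.72, 7.62 and 8.67 FPKM in the M group. Both the lowest and the highest value lay in the M group, which enclosed the Y group. The means were 7.35 ± 0.578 and 7.67 ± 0.977 FPKM, with a log2 fold change of 0.05 (95% interval -0.31 to 0.42, limma adjusted p = 0.833).

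SYCP1 (ENSBGRG00000006966), the transverse filament gene, was the steadiest of the 8. Its FPKM was 8.28, 8.11 and 8.51 in the Y group and 7.99, 9.19 and 8.49 in the M group, a 1.15-fold range over all 6 libraries. The means were 8.30 ± 0.200 and 8.56 ± 0.600 FPKM. The log2 fold change was 0.04 (SE 0.13, 95% interval -0.27 to 0.35, limma adjusted p = 0.853). Against SYCP1, SYCP2 stood at 1.13, 1.10 and 1.02 in the Y group and at 0.722, 1.02 and 0.967 in the M group. M replicate 1 was the library with the lowest ratio.

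SPO11 (ENSBGRG00000010307), the nuclease that starts recombination, was the least abundant. It had 1.42, 0.817 and 1.22 FPKM in the Y group and 1.38, 1.44 and 1.32 FPKM in the M group. The 3 M libraries lay close together, and 1 Y library exceeded 2 of them. The means were 1.15 ± 0.307 and 1.38 ± 0.0577 FPKM, and the log2 fold change was 0.27 (SE 0.25, 95% interval -0.31 to 0.85, limma adjusted p = 0.489). It was 0.06 without Y replicate 2, the lowest library, and 0.43 without Y replicate 1. SPO11 ranked at 46.9% to 53.8% of all identifiers in its library, whereas MEIOB, at the other end, ranked at 83.6% to 87.5%.

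DMC1 (ENSBGRG00000002636), the meiotic recombinase, had 6.40, 5.78 and 7.13 FPKM in the Y group and 6.10, 5.65 and 6.70 FPKM in the M group. The M values lay within or just below the Y range. The means were 6.44 ± 0.674 and 6.15 ± 0.526 FPKM, with a log2 fold change of -0.06 (95% interval -0.41 to 0.29, limma adjusted p = 0.803). The ratio of DMC1 to SPO11 was 4.51, 7.08 and 5.83 in the Y group and 4.43, 3.93 and 5.06 in the M group, and these ranges overlapped.

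MEIOB (ENSBGRG00000026058), which binds single-stranded DNA together with SPATA22, was the most abundant. Its FPKM was 11.02, 11.4 and 9.34 in the Y group and 9.08, 11.4 and 12.2 in the M group. The Y values lay inside the span of the M values. The means were 10.6 ± 1.10 and 10.9 ± 1.62 FPKM, with a log2 fold change of 0.03 (95% interval -0.36 to 0.43, limma adjusted p = 0.907).

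MLH3 (ENSBGRG00000008456), a mismatch repair protein that acts at crossovers, had 6.11, 5.25 and 5.77 FPKM in the Y group and 5.10, 5.83 and 7.33 FPKM in the M group. The M group again enclosed the Y group. The means were 5.71 ± 0.432 and 6.09 ± 1.14 FPKM, with a log2 fold change of 0.08 (95% interval -0.33 to 0.49, limma adjusted p = 0.790).

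Ordered by mean FPKM, MEIOB came first in the Y group, then SYCP2, SYCP1, HORMAD1, SYCP3, DMC1, MLH3 and SPO11. SYCP2 and SYCP1, SYCP1 and HORMAD1, and MLH3 and SPO11 did not overlap in the Y libraries, and the other neighbours did. In the M group the order was MEIOB, SYCP1, SYCP3, SYCP2, HORMAD1, DMC1, MLH3 and SPO11. There only HORMAD1 and DMC1, and MLH3 and SPO11, were neighbours whose values did not overlap.

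The 8 genes did not share a single pattern over the libraries. Over the 6 libraries the 28 pairs of leading identifiers had Pearson correlations from -0.84 (SYCP2 with SYCP3) to 0.86 (HORMAD1 with MEIOB), with a median of 0.17, and 15 pairs were positive. These correlations share the same 6 libraries and their scaling and are descriptions. The identifiers whose log2 values were most like the mean profile of the leading identifiers over the 6 libraries were MAP2K5 (r = 0.992), NAXE (0.988), ARHGAP44 (0.987), ANKRD34B (0.980) and FKBP5 (0.978). With the profile taken over all 11 member identifiers tested, the nearest were TMEM63A (0.995), FIGNL1 (0.988), TRIAP1 (0.975), DYNLRB1 (0.973) and TENM3 (0.971). The latter profile is led by 1 library in which an identifier under the symbol SYCP2 is listed at 0. Pearson r compares the shape of a profile and not its size. The centred log2 profile of the leading identifiers ran only from -0.086 to 0.11, whereas MAP2K5 ran from 0.243 to 1.80 FPKM. The genes named have the highest r among all identifiers tested, over only 6 libraries, and carry no test.

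**Figure D2:**
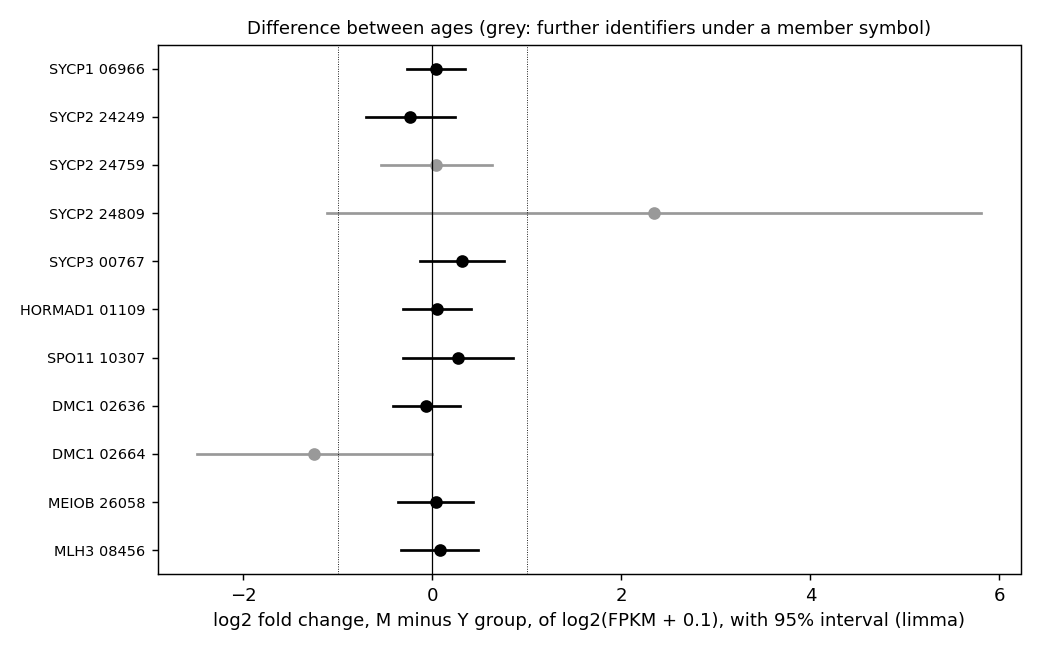
Log2 fold change (M minus Y) of log2(FPKM + 0.1) for the 11 member identifiers tested, with 95% intervals from limma. Leading identifiers are black, further identifiers under the same symbols are grey and labelled by their last digits, and dotted lines mark a 2-fold change. The 8 black intervals lie inside the dotted lines and cross 0, and the grey DMC1 interval, from -2.49 to -0.01, is the 1 that does not reach above 0.

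SYCP2, HORMAD1 and DMC1 each stood on more than 1 identifier, and the further identifiers did not follow the leading ones. Of all 13664 symbols in the table, 3871 stand on several identifiers. SYCP2 stood on 6 identifiers, HORMAD1 on 3 and DMC1 on 3. Of the 17 member identifiers, 11 had a mean FPKM of at least 0.5 and were tested, 6 were below it, and 2 of these, both under HORMAD1, are listed at 0 in every library. Several further identifiers carry functions other than meiosis in the annotation deposited with the values. Under SYCP2, ENSBGRG00000024625 is annotated with vasoconstriction, ENSBGRG00000024759 with phospholipid transport in mitochondria, and ENSBGRG00000024809 with the mitochondrial ATP synthase. In the RefSeq annotation of the yak (assembly Bosgru_T2T1.0, used for gene order only), the genes on one side of SYCP2 include EDN3, the gene of a vasoconstrictor peptide, PRELID3B, a phospholipid transfer gene, and ATP5F1E, a subunit of the ATP synthase. The HORMAD1 identifiers ENSBGRG00000001219 and ENSBGRG00000001228 are annotated with phosphatase inhibition at mitotic entry, a role of ENSA, which lies near HORMAD1. The DMC1 identifier ENSBGRG00000002697 is annotated with cilia and Wnt signalling, as CBY1 is known for, which lies near DMC1. The annotation is no full guide, since the leading identifiers of SYCP1, SYCP2, DMC1 and MEIOB carry terms such as reverse transcription or metal ion binding and none that names meiosis. Which gene each of the further identifiers measures was not settled, and their values are not read as SYCP2, HORMAD1 or DMC1. Of the identifiers below the limit and not at 0 throughout, ENSBGRG00000024625 reached at most 0.436 FPKM, ENSBGRG00000002697 at most 0.407 FPKM, and ENSBGRG00000024487 and ENSBGRG00000024502 under SYCP2, annotated only with nucleus and cytoplasm, at most 0.127 and 0.115 FPKM.

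Among them, ENSBGRG00000002664 under DMC1 was the 1 member identifier whose groups did not overlap. It had 2.51, 1.72 and 1.93 FPKM in the Y group and 0.268, 1.38 and 1.22 FPKM in the M group, with M replicate 1 far below the rest. Its annotation names the same reverse transcription and transposition terms as the leading DMC1 identifier. The means were 2.05 ± 0.412 and 0.958 ± 0.602 FPKM, and the log2 fold change was -1.25 (SE 0.53, 95% interval -2.49 to -0.01, limma unadjusted p = 0.0489, adjusted p = 0.197). It did not pass the adjusted threshold. Without M replicate 1 the log2 fold change was -0.60, and without Y replicate 1, 2 or 3 the unadjusted p was 0.129, 0.0733 and 0.0926. It was the 1 of 11 member identifiers tested with an unadjusted p under 0.05, beside 10.9% of all identifiers lower in M at that threshold and the 13.9% that lay below Y without overlap.

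Under SYCP2, ENSBGRG00000024809 had 7.58 and 3.65 FPKM in Y replicates 1 and 2, is listed at 0 in Y replicate 3, and had 9.48, 8.30 and 4.60 FPKM in the M group. Its log2 fold change of 2.35 (95% interval -1.12 to 5.81, limma adjusted p = 0.332) was 0.43 without Y replicate 3 and 3.56 without Y replicate 1 (unadjusted p = 0.0412). ENSBGRG00000024759 had 3.16, 5.57 and 4.74 FPKM in the Y group and 4.68, 5.36 and 3.65 FPKM in the M group (log2 fold change 0.04, limma adjusted p = 0.922).

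**Figure D3:**
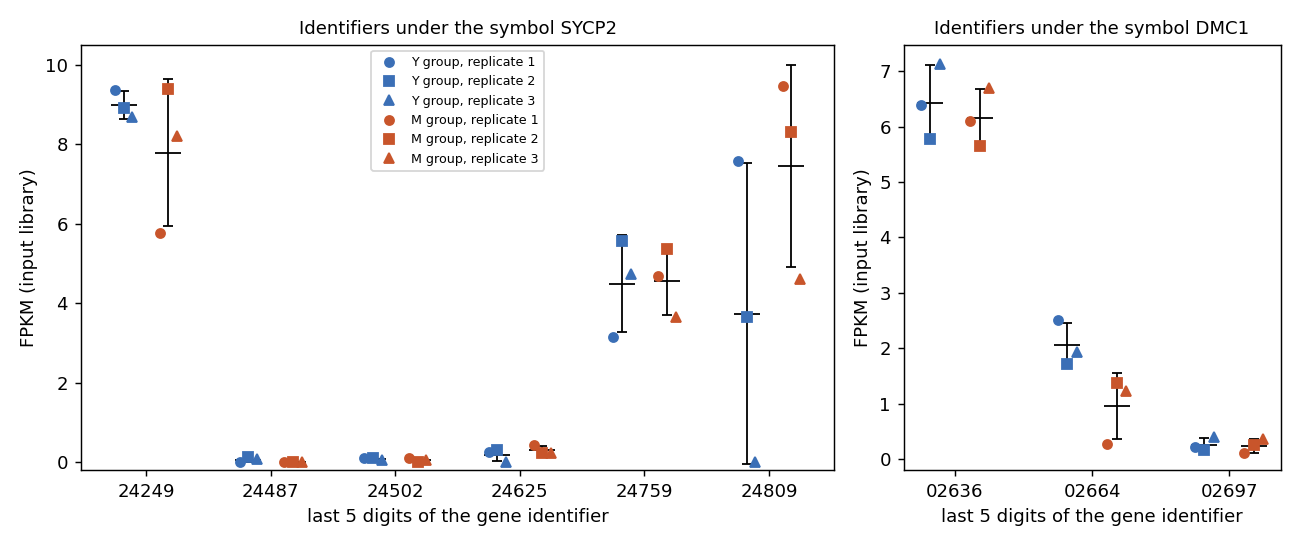
FPKM in the 6 input libraries of every identifier under the symbols SYCP2 (6 identifiers) and DMC1 (3 identifiers), labelled by their last digits, with the mean and SD of each group (n = 3). Of these 9 identifiers, ENSBGRG00000002664 under DMC1 is the 1 identifier tested with all M values below all Y values, and ENSBGRG00000024809 under SYCP2 spans 0 to 9.48 FPKM.

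The other genes of meiotic prophase were taken from fixed lists. These held 56 genes in 7 groups, of which 41 had a row under their symbol, on 74 identifiers, 43 of them tested. An unadjusted p under 0.05 was reached by 3 identifiers higher and 2 lower in the M group, beside 14.2% and 10.9% of all identifiers tested. None passed the adjusted threshold with limma, and their median log2 fold change was -0.10. The groups did not overlap for 14 of the 43, 10 with M above and 4 with M below, a share near the 33.7% of all identifiers tested. PRDM9, STRA8, MSH5 and RNF212 are among the 15 genes not analysed here.

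In the cohesin and axis list 0 of 6 identifiers tested reached an unadjusted p under 0.05. HORMAD2, a relative of HORMAD1, was the highest of the list with 37.6 and 33.8 FPKM in the Y and M groups (log2 fold change -0.16). TRIP13, the ATPase that strips HORMAD1 from joined axes, had 5.22 and 5.20 FPKM (0.00). The central element list, whose proteins hold the SYCP1 filaments together, likewise had 0 of 5. Its highest member was SYCE1, with 17.7 and 14.6 FPKM (-0.31). Of the break formation genes, 0 of 5 reached the threshold. REC114, needed for cutting by SPO11, was the highest with 8.71 and 7.79 FPKM (-0.16).

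The strand exchange list held 1 higher and 1 lower among 8 identifiers tested. BRCA2, which loads recombinases on DNA, had 2.00, 2.11 and 1.96 FPKM in the Y group and 3.75, 2.67 and 3.02 FPKM in the M group. All 3 M libraries lay above all Y libraries. Its log2 fold change was 0.60 (SE 0.18, 95% interval 0.18 to 1.02, limma unadjusted p = 0.011, adjusted p = 0.154). TEX15, required for the loading of recombinases on breaks, stood on 2 identifiers. ENSBGRG00000024980 had a mean of 24.1 FPKM in the Y group and 17.3 in the M group (log2 fold change -0.49, limma unadjusted p = 0.033, adjusted p = 0.174), and ENSBGRG00000025021 had 15.2 and 17.9 FPKM (0.23, adjusted p = 0.347). Neither pair of groups overlapped. For ENSBGRG00000025021 they only just missed, with 15.654 FPKM in the lowest M library and 15.635 FPKM in the highest Y library. Its 95% interval was -0.12 to 0.59, so an opposite direction was not shown. Whether both identifiers measure TEX15 was not tested. The unadjusted p of ENSBGRG00000024980 rose above 0.05 without M replicate 3, Y replicate 1 or Y replicate 3, reaching up to 0.101. It also did so with germ cell list scaling (limma, 0.0815), quantile normalization (0.0619) and the replicate block (0.0763). The partners of members in this list were PSMC3IP and MND1, which assist DMC1, with log2 fold changes of -0.47 (95% interval -1.76 to 0.83) and -0.39 (-1.10 to 0.32), and SPATA22, the partner of MEIOB, with 14.2 and 12.3 FPKM (-0.22, 95% interval -0.56 to 0.12). Without M replicate 1 the log2 fold change of PSMC3IP was 0.06 and that of MND1 -0.07, and without M replicate 2 that of MND1 was -0.67 (limma unadjusted p = 0.0361). With array weights SPATA22 had -0.26 (limma unadjusted p = 0.0263, adjusted p = 0.0724). In that setting 44.2% of all identifiers tested had an unadjusted p under 0.05.

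The crossover list held 2 higher and 1 lower among 11. TEX11 (ENSBGRG00000007261), a gene of the X chromosome needed for crossovers, had 10.1, 11.1 and 12.4 FPKM in the Y group and 16.8, 14.5 and 14.6 FPKM in the M group (log2 fold change 0.45, limma unadjusted p = 0.018, adjusted p = 0.158). HFM1 (ENSBGRG00000002085), a helicase, had means of 1.72 and 2.74 FPKM (0.69, limma adjusted p = 0.171). The more abundant identifier under that symbol, ENSBGRG00000002204, had 10.5 and 9.56 FPKM (-0.12). Which of them measures HFM1 was not tested. PRR19, a crossover cofactor and the highest of the list, had 48.3, 45.9 and 55.3 FPKM in the Y group and 13.0, 39.8 and 30.3 FPKM in the M group (-0.99, limma adjusted p = 0.182), and -0.52 without M replicate 1. The unadjusted p of TEX11 rose above 0.05 without Y replicate 1 or 2 and with the replicate block (limma, 0.0629). That of PRR19 did so without any 1 of the Y libraries. That of HFM1 (ENSBGRG00000002085) did so without M replicate 2 or 3 or Y replicate 1 or 2, and with quantile normalization (0.0650). In the telomere attachment and meiotic entry lists 0 of 6 and 0 of 2 reached the threshold. Their highest members were SPDYA, with 22.0 and 21.2 FPKM (-0.07), and MEIOC, with 28.2 and 26.4 FPKM (-0.10).

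Markers of spermatids, the cells after meiosis, were lower in the M group. In bulk tissue, fewer cells of a type and less RNA per cell cannot be told apart. Of 7 round spermatid marker identifiers, 5 were lower in the M group at an unadjusted p under 0.05, beside 10.9% of all identifiers tested. The median log2 fold change of the 7 was -1.21. Of the 5, 2 stand under the symbol CAPZA3. ACRV1 and SUN5, also among the 5, overlapped between the groups. Their M replicate 2, with 41.6 and 4.50 FPKM, lay within the Y range. All 4 elongating spermatid identifiers were lower, with a median of -1.16. TSSK1B, a spermatid kinase, had a log2 fold change of -0.99 and TNP1 of -1.07 (limma adjusted p = 0.172 and 0.188), and without M replicate 1 these were -0.57 and -0.55. The unadjusted p of TNP1 was under 0.05 in 11 of 17 alternative fits. The fits above 0.05 included those without any 1 of the Y libraries. The unadjusted p of TSSK1B was above 0.05 without M replicate 3 or Y replicate 1 or 3.

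Of the 8 spermatocyte marker identifiers, 1 was lower, and their summed FPKM was 412 to 447 in the Y group and 234 to 391 in the M group. PGK2, a glycolytic kinase of late germ cells, led that list (log2 fold change -0.63, limma unadjusted p = 0.047, adjusted p = 0.195). It was -0.35 without M replicate 1, and its unadjusted p was above 0.05 without M replicate 3 or any 1 of the Y libraries and with the replicate block (0.0733), no filter (0.0678) or quantile normalization (0.0884). Spermatogonia markers summed to 35.2 to 37.0 FPKM in the Y group and 42.1 to 81.2 in the M group, the highest being M replicate 1, with 1 of 8 identifiers higher. UCHL1 led it (log2 fold change 0.62, limma adjusted p = 0.235), with 0.26 without M replicate 1 and 0.84 without M replicate 2 (unadjusted p = 0.0235).

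Markers of somatic cells differed by list. All 5 Sertoli cell identifiers were higher at an unadjusted p under 0.05 (summed FPKM 17.0 to 20.5 against 25.6 to 43.2), SOX9 among them with a log2 fold change of 0.60 (limma adjusted p = 0.160). So were 5 of 6 peritubular and stromal identifiers (20.5 to 23.9 against 31.3 to 49.4), led by ACTA2, smooth muscle actin, with 0.84 (adjusted p = 0.154). Of 6 Leydig cell marker genes listed, only 2 had a row under their symbol, STAR and CYP11A1, with 3 identifiers tested. STAR was the 1 lower, at -0.92 (limma adjusted p = 0.154). CYP11A1 did not go 1 way. Its more abundant identifier, ENSBGRG00000004363, had 2.30 and 2.29 FPKM in the Y and M groups (0.12, limma adjusted p = 0.875). ENSBGRG00000004417 had 0.891 and 0.302 FPKM (-1.4, limma adjusted p = 0.202). Macrophage markers had 2 of 5 lower, while CD14, the highest of that list, had 0.55 (adjusted p = 0.267). Endothelial markers had 0 of 4 past the threshold, VWF at 0.12 (adjusted p = 0.792). No identifier of these marker lists passed the adjusted threshold, and no list symbol found in the table was at 0 in all libraries. The part of these differences in the values of the members was not tested.

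**Figure D4:**
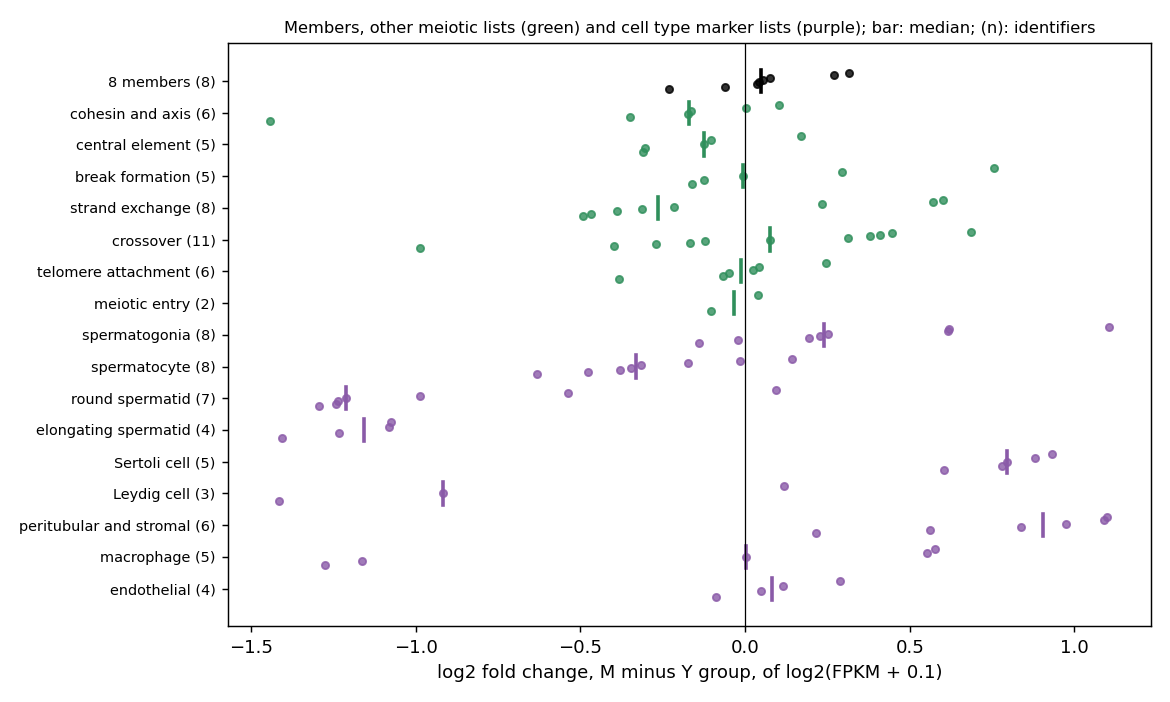
Log2 fold change (M minus Y, log2(FPKM + 0.1)) of each tested identifier (points) and its list median (bars). Shown are the 8 leading identifiers (black), 7 other meiotic lists (green) and 9 cell type marker lists (purple), with the number of identifiers in brackets. Members lie between -0.23 and 0.32, and the list medians run from -1.21 for round spermatids to 0.91 for peritubular and stromal cells.

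Differential m6A peaks lay on 2 of the members, DMC1 and MLH3. m6A is a methylated adenosine in RNA, and a peak is a stretch enriched by the antibody. Peaks called as different between the ages lay on 9.29% of the identifiers tested for expression and on 5.63% of all identifiers, and on 2 of the 11 member identifiers tested. The deposited table gives neither a direction nor a size for a peak, so none is given here. The DMC1 peak spanned 4825 bp on the minus strand of chromosome 5 (LU_Bosgru_v3.0, 118270364 to 118275188) and was annotated to exon 7 of 14. The gene runs from 118253673 to 118289295, and the peak lay 14107 to 18931 bp from its start, at 39.6% to 53.1% of the gene length. Its width exceeded that of 87.8% of the 1438 differential peaks, whose median was 398 bp. Width is counted on the genome from first to last base, so introns may lie within it.

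The MLH3 peak spanned 298 bp on the minus strand of chromosome 11 (76910725 to 76911022) and was annotated to exon 1 of 13. The gene runs from 76888345 to 76913845, and the peak lay 2823 to 3120 bp from its start, at 11.1% to 12.2% of the gene length. Both genes carrying a peak had overlapping expression at the 2 ages, with log2 fold changes of -0.06 and 0.08. Of the 74 identifiers in the other meiotic lists, 2 carried a differential peak. One was BRCA2, with a 151 bp peak annotated to exon 10 of 26 (chromosome 15, 53801669 to 53801819). The other was TERB1, which attaches telomeres to the nuclear envelope, with a 1409 bp peak annotated to exon 12 of 17 (chromosome 20, 12161413 to 12162821). TERB1 had 13.4 and 13.7 FPKM in the Y and M groups (log2 fold change 0.02).

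**Figure D5:**
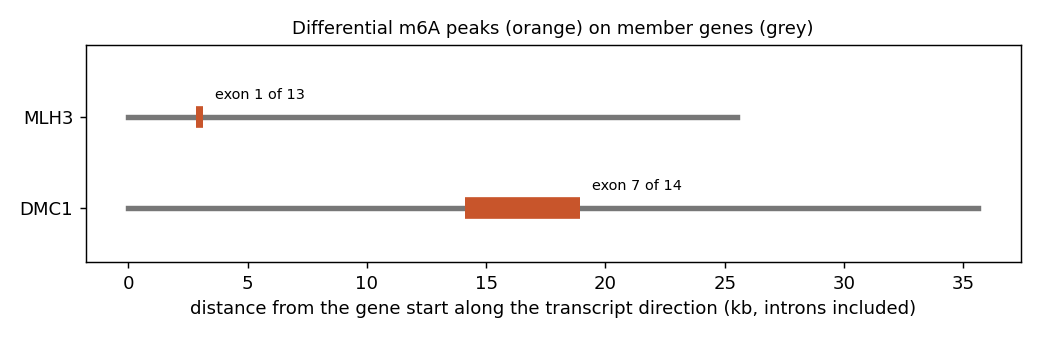
Position of the differential m6A peaks (orange) along DMC1 and MLH3 (grey), as distance in kb from the gene start in the direction of transcription, introns included. The DMC1 peak of 4825 bp lies near the middle of the gene and the MLH3 peak of 298 bp near its start.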

How the data were processed

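Per the labels and methods, poly(A) RNA of each testis was fragmented, and input and anti-m6A fractions were made into TruSeq Stranded libraries and sequenced in pairs on a HiSeq X10. Reads were trimmed by the authors (Trimmomatic), cleared of rRNA (SortMeRNA) and aligned with HISAT2 2.0.4 to the LU_Bosgru_v3.0 genome. Only reads with a unique position were kept, so copies that share sequence lose reads. The deposited FPKM values by identifier and input library were used as given. The program that computed them is not given in the sources used here. Fragment numbers are not in the table, so the depth behind a value is unknown and a 0 has no limit. The authors called and compared peaks with MeTDiff (p up to 0.05, fold of at least 1.5) and annotated them with ChIPseeker. The deposited table of differential peaks gives position, width in bp and annotation, with no fold change or p-value.

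For log2(FPKM + 0.1), the age groups were contrasted by limma 3.58.1 under R 4.3.3 (lmFit and trended eBayes) over the 12437 identifiers with a mean FPKM of at least 0.5. Tests were two-sided and adjusted over all of them by Benjamini-Hochberg. The pseudocount understates changes of low genes. With 3 animals per group an exact permutation test cannot give a p below 0.1, so none was used for single genes. The steps were tested on simulated data with 3 libraries against 3 and changes planted in 200 identifiers, the rest without a difference. Of planted changes with a log2 of 1, 18.5% passed the adjusted threshold and 82.5% the unadjusted one. With a log2 of 2 these were 74% and 98.5%. The adjusted threshold thus missed most planted 2-fold changes. Python 3.11.15 with pandas 2.3.3 did the rest.

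The members and gene lists were chosen with earlier results of these data known. Named were all member identifiers, partners of members (TOP6BL, the partner of SPO11, is not analysed here, and 1 other gene of the rule is not reported here), per meiotic list the highest identifier and up to 4 with an unadjusted p under 0.05 and no overlap, the 5 genes most like the members, and the highest marker of each list. TERB1, the second identifiers of TEX15 and HFM1, and the profile over leading identifiers were chosen after seeing the data. Alternatives were other pseudocounts, filters, scalings, eBayes forms and array weights, a replicate block, single libraries left out, short peaks and leading identifiers alone. Reads, antibody libraries by gene and the peak lists of each age were not analysed here.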

Additional observations from a re-analysis of the deposited data

How the results depend on the processing

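The 8 leading identifiers kept an adjusted p above 0.05 in all 136 fits under alternatives (17 each), with log2 fold changes from -0.38 to 0.47 and a lowest adjusted p of 0.112. MLH3 reached an unadjusted p of 0.0493 with array weights (0.30), so that the count at an unadjusted p under 0.05 rose from 0 to 1 for leading identifiers and from 1 to 2 for all members. The call of the second DMC1 identifier held in 9 of 17 fits. The count of members became 0 without trend, with a filter of 1 FPKM, with no filter, with a pseudocount of 0.01, with the replicate block, with leading identifiers only, and 0 to 1 with a library left out. Replicate numbers do not pair the animals (correlations of same-numbered deviations -0.022, -0.091 and 0.0067).

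Of the other meiotic identifiers, 3 higher became 7 with array weights and 1 to 3 with a library left out. The 2 lower became 5 with array weights or median scaling, 1 with germ cell list scaling, quantile normalization or the replicate block, and 0 to 6 with a library left out. The 0 past the adjusted threshold became 8 with array weights and 0 to 4 with a library left out, the 4 without M replicate 2. Over all identifiers the adjusted count was 4, 3715 with array weights and 2526 without M replicate 2. Scaling to germ cell genes (4 of 6 listed genes found) moved the median of all log2 fold changes by 0.16, to 0.20, with the leading identifiers at 0.20.

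Signs turned for values near 0. With median scaling SYCP1 came to -0.014, HORMAD1 to -0.00033, MEIOB to -0.020, TRIP13 to -0.053 and the SYCP2 identifier ENSBGRG00000024759 to -0.012. With array weights that identifier came to -0.18, leading DMC1 to 0.026, PSMC3IP to 0.36, SPDYA to 0.094 and MEIOC to 0.0052. With germ cell list scaling DMC1 came to 0.093, SPDYA to 0.089 and MEIOC to 0.050. With quantile normalization HORMAD2 came to 0.044, TRIP13 to -0.026, SPDYA to 0.11, MEIOC to 0.081 and ENSBGRG00000024759 to -0.012. With a library left out the ranges were -0.010 to 0.089 for SYCP1, -0.18 to 0.21 for ENSBGRG00000024759, -0.036 to 0.15 for HORMAD1, -0.14 to 0.013 for DMC1, -0.052 to 0.16 for MEIOB, -0.063 to 0.19 for MLH3, -0.11 to 0.085 for TRIP13, -0.97 to 0.058 for PSMC3IP, -0.16 to 0.084 for SPDYA, -0.18 to 0.033 for MEIOC and -0.16 to 0.28 for VWF. The cause was not tested. Of the 2 peaks on members, 1 is at most 1000 bp wide.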
